A study of Mus musculus with 9 samples.

Results

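The 10 genes described here encode enzymes that write, copy and erase DNA methylation in mouse embryos, together with 3 proteins without those activities, DNMT3L, UHRF1 and DPPA3, that act with or against them. They were taken by name, as Dnmt1, Dnmt3a, Dnmt3b, Dnmt3l, Uhrf1, Tet1, Tet2, Tet3, Dppa3 and Tdg, from the 53819 genes of each count table. All 10 were present, and all 10 were among the 12488 genes that passed the filter on low counts and were tested. Total RNA of morulae, the stage at which the blastomeres compact before the blastocyst cavity forms, had been sequenced to ask whether alcohol taken by the sire before conception altered expression in the embryo. The 9 libraries fell into 3 groups of 3, namely embryos of sires on 6% ethanol, embryos of sires on 10% ethanol and embryos of control sires. All embryos were C57BL/6J and were made by in vitro fertilization with the Nakagata protocol and CARD media, so controls and treated groups shared culture outside the dam. The length of the exposure, the number of sires and the number of embryos in a library are not given in the sources used here. Libraries may therefore share a sire, and p-values measure only the spread between these libraries.

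In mammals DNMT3A and DNMT3B place methyl groups on unmethylated CpG dinucleotides, and DNMT3L, which has no catalytic activity of its own, stimulates them. DNMT1 copies the pattern to the new strand after replication, guided by UHRF1, which binds hemimethylated DNA. TET1, TET2 and TET3 oxidise methylcytosine stepwise, and the glycosylase TDG removes the most oxidised forms so that base excision repair can restore an unmodified cytosine. DPPA3, also called STELLA or PGC7, is a maternal protein that shields the maternal genome from TET3 in the zygote and keeps UHRF1 off chromatin. The preimplantation embryo loses most of its methylation before the de novo enzymes restore it after implantation.

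Counts of a gene were summed over all its transcripts, so that different start sites could not be separated. Starts of these genes lie in sequence that differs widely in CpG, the dinucleotide on which the encoded enzymes act, and 4 windows are shown to make that range visible. RefSeq windows of 300 bases, from 250 before to 50 after a start on GRCm38.p6, were available for 9 of the 10 genes, and Dppa3 was the other. Dnmt1 has separate first exons for oocytes and somatic cells in the mouse, and its windows ran from 2 to 33 CpG, with 1 more window at 12. The median of all 32851 RefSeq windows was 7 CpG. The single Tet2 window held 57 CpG, a number reached by 0.152% of windows, whereas the 3 Dnmt3l windows held 6, 4 and 3. The windows below run 5′ to 3′ on the strand of the gene, with each CpG in capitals. The first 2 are Dnmt1 at chr9:20959839-20960138 and chr9:20952574-20952873, both on the minus strand. The third is Tet2 at chr3:133544341-133544640 on the minus strand, and the last is Dnmt3l at chr10:78042037-78042336 on the plus strand.
Dnmt1, CpG-poor window: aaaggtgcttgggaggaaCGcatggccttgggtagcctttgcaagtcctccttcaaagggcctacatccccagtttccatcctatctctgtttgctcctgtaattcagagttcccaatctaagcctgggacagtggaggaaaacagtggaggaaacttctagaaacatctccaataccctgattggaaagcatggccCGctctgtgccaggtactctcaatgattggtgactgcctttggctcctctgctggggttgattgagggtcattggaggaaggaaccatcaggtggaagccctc
Dnmt1, CpG-rich window: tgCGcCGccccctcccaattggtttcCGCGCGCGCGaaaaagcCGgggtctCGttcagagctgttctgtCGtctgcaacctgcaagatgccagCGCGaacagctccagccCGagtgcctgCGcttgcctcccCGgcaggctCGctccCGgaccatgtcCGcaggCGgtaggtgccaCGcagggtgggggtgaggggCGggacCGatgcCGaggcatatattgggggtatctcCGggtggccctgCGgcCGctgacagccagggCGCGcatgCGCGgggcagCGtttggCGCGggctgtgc
Tet2: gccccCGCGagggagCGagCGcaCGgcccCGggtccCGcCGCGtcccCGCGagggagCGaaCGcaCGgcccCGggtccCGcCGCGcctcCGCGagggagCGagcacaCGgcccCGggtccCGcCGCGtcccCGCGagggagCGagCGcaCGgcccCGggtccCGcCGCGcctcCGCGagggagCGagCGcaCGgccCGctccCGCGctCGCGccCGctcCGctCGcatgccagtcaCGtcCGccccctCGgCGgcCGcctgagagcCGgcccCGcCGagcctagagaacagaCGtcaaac
Dnmt3l: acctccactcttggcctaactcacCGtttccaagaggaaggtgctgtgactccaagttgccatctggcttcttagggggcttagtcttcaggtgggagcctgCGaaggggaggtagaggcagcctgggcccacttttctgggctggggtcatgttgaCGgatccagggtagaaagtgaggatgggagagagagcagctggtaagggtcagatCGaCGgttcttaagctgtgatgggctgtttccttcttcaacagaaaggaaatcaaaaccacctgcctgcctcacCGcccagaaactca
The remaining windows held 30 CpG for Dnmt3b, 46, 47 and 18 for Dnmt3a, 12 and 33 for Uhrf1, 17 for Tet1, 22 for Tet3 and 26 for Tdg. Short motifs were searched on both strands, namely the GC box GGGCGG, the CCAAT box CCAAT, the TATA box TATAAA and the octamer ATGCAAAT. They occurred in 35.7%, 37.4%, 13.6% and 1.74% of all windows. The CpG-poor Dnmt1 window held 5 CCAAT boxes and the CpG-rich one held 3 CCAAT boxes and 2 GC boxes. No window of these genes held a TATAAA or an octamer, which says only that these letters are not in these windows.

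Library totals ran from 6263465 to 27619281 counts. The deposited files had column headers of 2 forms, which also split the libraries by depth. Control 2, 6% ethanol 1, 10% ethanol 1 and 10% ethanol 2 had the long form, which names RNA STAR, and 19574710 to 27619281 counts. The other 5 had the short form and 6263465 to 11026334 counts. No source used here says what the header form stands for, so fold changes within each form are printed for the 10 genes against control. Long-header libraries hold 1 of the 6% ethanol, 2 of the 10% ethanol and 1 of the control libraries. Blastomere and early lineage markers summed to 1374.5 to 2702 CPM (counts scaled to the size of the library) in the 9 libraries, and all 9 of them were detected well enough to test. Klf5 and Cdh1 had the largest means, at 805 and 343 CPM, and ran from 462 to 1035 and from 238 to 455 CPM. Other markers spread more widely, with Cdx2 from 10.7 to 160, Tfap2c from 31.3 to 335 and Gata3 from 5.51 to 402 CPM. The lowest Cdx2 and Tfap2c were in 6% ethanol 2 and the lowest Gata3 in 6% ethanol 3. Cdx2 was nearly as low in 10% ethanol 3, at 11.3 CPM, and highest in 6% ethanol 3. Nanog ran from 17.7 CPM in 6% ethanol 3 to 200 CPM in control 1. The lowest Pou5f1, Tead4 and Klf5 were in control libraries and the lowest Cdh1 in 10% ethanol 3. Sox2 was at 0 in 6% ethanol 3 and 10% ethanol 3. Cumulus, sperm, and blood and fibroblast markers summed to at most 2.64, 3.52 and 0.658 CPM, with Has2, Ptx3, Fshr, Prm2, Tnp1, Tnp2, Hbb-bs, Ptprc and Col1a2 at 0 in every library. Oocyte markers summed to 5.92 to 17.4 CPM in 6% ethanol libraries, 9.39 to 30.6 in 10% ethanol libraries and 6.60 to 8.33 in control libraries.

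Dppa3 was by far the most abundant of the 10 genes. Levels per kb of exon were taken over all annotated exon bases of a gene and not over the transcript in use. Dnmt3a has 16642 such bases and Dnmt3b 5106, so the order of genes may depend on this choice. On this scale Dppa3 averaged 2192 ± 1228 CPM per kb (SD, n = 9 libraries) and exceeded 99.9% of the 12153 tested genes with an exon length. Dnmt3b followed at 17.2 ± 4.67 CPM per kb and Dnmt3l at 12.8 ± 9.42, with Dnmt3b the higher in 5 of 9 libraries, so these neighbours were not separated. Tet2 averaged 6.18 ± 4.11, Dnmt1 4.18 ± 4.27 and Tet1 4.07 ± 1.85 CPM per kb. Each of these 3 stood above the next in the order in at most 6 of 9 libraries. Uhrf1 averaged 2.32 ± 1.53, Tdg 1.79 ± 1.15 and Dnmt3a 1.65 ± 0.651 CPM per kb, again interleaved from library to library. Tet3 was lowest at 0.295 ± 0.428 CPM per kb, below Dnmt3a in all 9 libraries and above only 5.61% of tested genes. Dnmt3b exceeded Dnmt3a and Dnmt1 in 9 of 9 libraries, and Tet1 and Tet2 each exceeded Tet3 in 9 of 9.

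**Figure D1:**
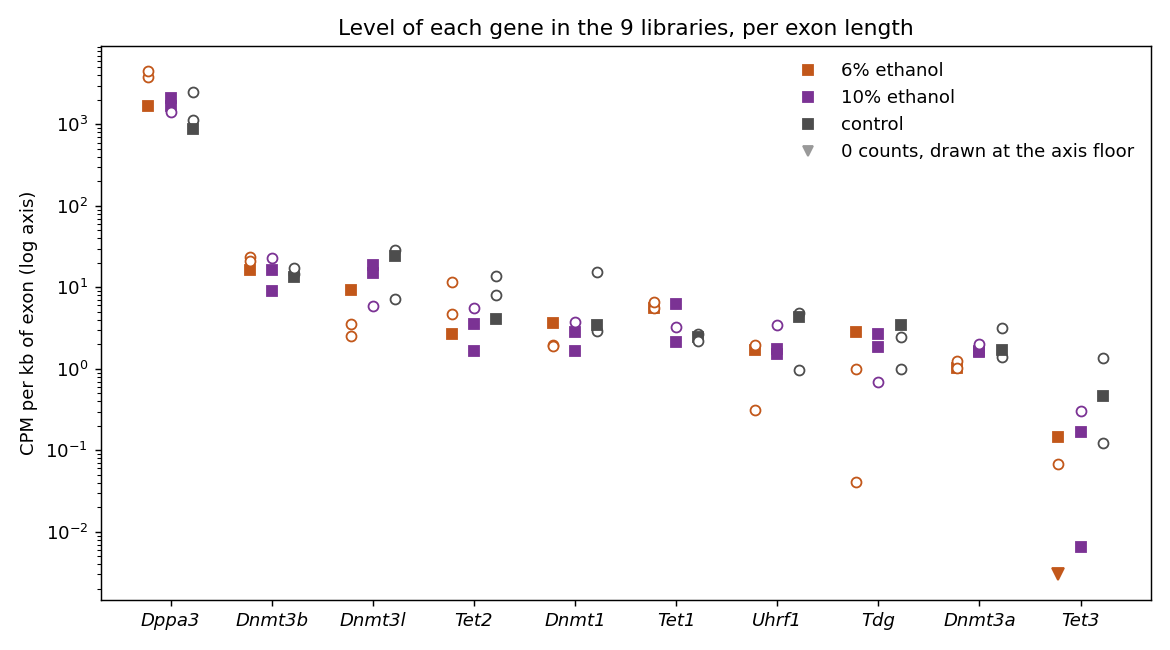
Level of the 10 genes in CPM per kb of exon on a log axis, 1 point per library, with 6% ethanol, 10% ethanol and control from left to right within each gene and genes ordered by mean. Filled squares are libraries with the long header and open circles those with the short header. Dppa3 stands near 2192 CPM per kb, and Tet3, at 0 counts in 1 library of the 6% ethanol group, lies at the bottom.

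No gene of the 10 passed an adjusted p of 0.05 in any of the 3 comparisons (edgeR quasi-likelihood test, Benjamini-Hochberg adjustment over 12488 genes), beside 0% of all tested genes, and DESeq2 called none of the 10 either. In all, 3 of them, beside 6.24% of all tested genes, had an unadjusted p under 0.05 between 6% ethanol and control. These were Tet1 and Dppa3, with higher values in 6% ethanol embryos, and Dnmt3l, with lower ones. In 6% ethanol embryos 7 of the 10 genes had a log2 fold change below 0 against control, and the median of the 10 was -0.88, beside -0.01 over all tested genes, of which 50.5% were below 0. In 10% ethanol embryos it was likewise 7 of 10, with a median of -0.49 beside -0.05. These comparisons share the control libraries. In bulk RNA, fewer cells carrying a transcript and less of it per cell cannot be told apart.

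Dppa3, whose product keeps UHRF1 off chromatin, had 1494, 3393 and 4027 CPM in 6% ethanol libraries, 1873, 1489 and 1260 CPM in 10% ethanol libraries, and 1025, 783 and 2253 CPM in control libraries. The 2 highest values were 6% ethanol libraries 2 and 3, but control 3 exceeded 6% ethanol 1, so the groups overlapped. Dppa3 had a log2 fold change of 1.13 ± 0.50 (SE) for 6% ethanol against control, with an unadjusted p of 0.0421 and an adjusted p of 0.799. This was 0.94 among long-header libraries and 1.17 among short-header libraries. Against control, 10% ethanol gave 0.19 ± 0.49 with an adjusted p of 0.9999, and the sign differed between long-header (1.10) and short-header (-0.38) libraries. Between 10% and 6% ethanol it was -0.95 ± 0.50 with an adjusted p of 0.806.

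Dppa3 shares 16% of its 50-base stretches with the pseudogene Dppa3-ps, which had 139 to 518 counts in the same libraries, so its counts carry some uncertainty. By the rule for likeness, the 3 genes whose log2 CPM followed Dppa3 most closely over the 9 libraries were Magoh, a core protein of the exon junction complex, at r = 0.97, the histone chaperone gene Nap1l1 at 0.97, and Dppa3-ps itself at 0.97. These coefficients describe 9 libraries that also share depth and header form, and no p is attached to them. Magoh averaged 106 ± 32.5 CPM in 6% ethanol, 68.7 ± 17.4 in 10% ethanol and 57.9 ± 36.7 in control libraries (SD, n = 3 each).

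Dnmt1, the maintenance methyltransferase, had 27.2, 14.5 and 14.0 CPM in 6% ethanol libraries, 12.4, 21.1 and 27.9 CPM in 10% ethanol libraries, and 21.6, 25.3 and 113 CPM in control libraries. Control 3 stood apart, and every other library lay between 12.4 and 27.9 CPM. Between 6% ethanol and control the log2 fold change of Dnmt1 was -1.52 ± 0.78 with an adjusted p of 0.804, and without control 3 it was -0.36. Among long-header libraries it was 0.11 and among short-header libraries, which include control 3, it was -2.25. In 10% ethanol libraries the log2 fold change against control was -1.38 ± 0.78 with an adjusted p of 0.9999, and -0.20 without control 3. Within header form it was -0.60 among long-header and -1.27 among short-header libraries.

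Uhrf1, whose product brings DNMT1 to replicated DNA, had 7.37, 1.34 and 8.26 CPM in 6% ethanol libraries, 7.42, 6.58 and 14.8 CPM in 10% ethanol libraries, and 20.5, 18.4 and 4.10 CPM in control libraries. Controls 1 and 2 were the 2 highest libraries, while control 3 lay below 2 of the 3 libraries of the 6% ethanol group. Uhrf1 had a log2 fold change of -1.34 ± 1.003 for 6% ethanol against control with an adjusted p of 0.849, and -0.58 ± 0.99 for 10% ethanol against control with an adjusted p of 0.9999. Among long-header libraries the value was -1.32 at 6% and -1.40 at 10% ethanol against control, and among short-header libraries it was -1.36 and 0.26. Control 3 thus held the highest Dnmt1 and the lowest Uhrf1 of the control group. Of the 50-base stretches of Uhrf1, 14.7% also occur in the predicted gene Gm5648, which had at most 4 counts.

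The de novo genes differed in how far their libraries spread. Dnmt3l, the catalytically inactive stimulator of the de novo enzymes, had 27.4, 10.5 and 7.49 CPM in 6% ethanol libraries, 44.5, 56.2 and 17.4 CPM in 10% ethanol libraries, and 85.7, 72.5 and 21.7 CPM in control libraries. The 2 lowest values were 6% ethanol libraries 2 and 3, and 6% ethanol 1 lay just above control 3, so the groups overlapped in that pair. Dnmt3l had a log2 fold change of -1.98 ± 0.78 for 6% ethanol against control, with an unadjusted p of 0.0250 and an adjusted p of 0.799. It was -1.40 among long-header and -2.60 among short-header libraries, and it ran from -2.77 to -1.65 as each library was left out in turn. For 10% ethanol against control it was -0.61 ± 0.75 with an adjusted p of 0.9999, with -0.53 among long-header and -1.63 among short-header libraries, and for 10% against 6% ethanol it was 1.38 ± 0.76 with an adjusted p of 0.806.

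Dnmt3l also had the widest spread of the members averaging 10 CPM or more, with a highest library 11.5 times its lowest. The median was 6.62 times over tested genes averaging 10 CPM or more with a count in every library. The genes most like Dnmt3l in log2 CPM over the 9 libraries were Zfp362, Frs3 and Mfsd1, each at r = 0.96. Zfp362 and Frs3 were at 0 counts in 6% ethanol libraries 2 and 3, whereas Mfsd1, a transporter of the lysosomal membrane, averaged 389 ± 135 CPM in 6% ethanol, 521 ± 139 in 10% ethanol and 564 ± 118 in control libraries (SD, n = 3 each). Exons of Dnmt3l overlap the opposite-strand gene Aire over 67 bases, and Aire had at most 7 counts in a library.

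Dnmt3a, the de novo enzyme that with DNMT3L methylates the oocyte genome, had 17.1, 20.8 and 16.8 CPM in 6% ethanol libraries, 27.2, 27.05 and 33.6 CPM in 10% ethanol libraries, and 23.5, 28.5 and 52.3 CPM in control libraries. Every 6% ethanol library lay below every library of the other groups. Dnmt3a had a log2 fold change of -0.93 ± 0.62 for 6% ethanol against control, with an adjusted p of 0.837, and 0.68 ± 0.62 for 10% against 6% ethanol, with an adjusted p of 0.827. Within header form the 6% ethanol difference from control was -0.74 among long-header and -1.02 among short-header libraries. With 10% ethanol the difference from control was -0.25 ± 0.62, with -0.075 among long-header and -0.17 among short-header libraries, and 0.17 without control 3.

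Dnmt3b, the most abundant methyltransferase per kb here, had 83.5, 119 and 107 CPM in 6% ethanol libraries, 46.0, 84.5 and 117 CPM in 10% ethanol libraries, and 74.0, 68.0 and 89.0 CPM in control libraries. Of the 10 genes it varied least, with a highest library 2.59 times its lowest. Its log2 fold change was 0.43 ± 0.50 for 6% ethanol against control with an adjusted p of 0.898, and 0.10 ± 0.50 for 10% ethanol against control with an adjusted p of 0.9999. Among long-header libraries the value was 0.30 at 6% and -0.061 at 10% ethanol against control, and among short-header libraries it was 0.46 and 0.51. Its near copy Dnmt3c, a rodent enzyme of the male germ line, shares 9.81% of the 50-base stretches of Dnmt3b and had 0 to 132 counts.

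**Figure D2:**
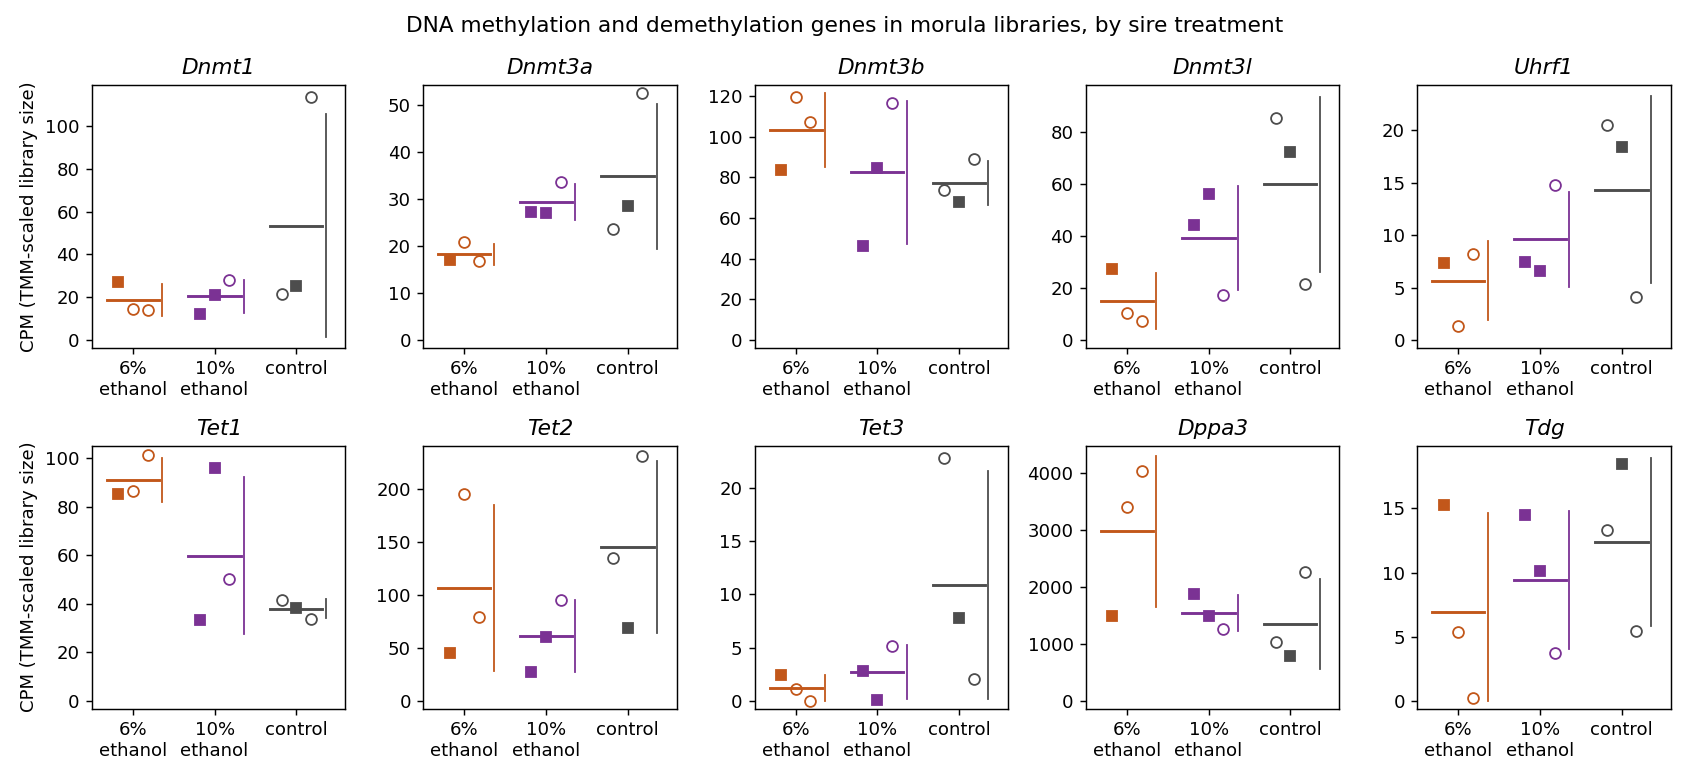
CPM of each of the 10 genes in the 9 libraries, 1 panel per gene with its own axis from 0, with 6% ethanol, 10% ethanol and control from left to right. Filled squares are long-header and open circles short-header libraries, the horizontal bar is the group mean and the thin line at its right the mean ± SD, stopped at 0. Tet1 and Dnmt3a show no overlap between 6% ethanol and control, and control 3 stands apart at 113 CPM for Dnmt1.

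Of the TET dioxygenases, Tet1 was the one whose 6% ethanol libraries all lay above the control libraries. Tet1 had 85.3, 86.5 and 101 CPM in 6% ethanol libraries, 33.5, 95.9 and 50.05 CPM in 10% ethanol libraries, and 41.6, 38.3 and 33.9 CPM in control libraries. The means were 91.1 ± 8.99 CPM in 6% ethanol, 59.8 ± 32.3 in 10% ethanol and 37.9 ± 3.90 in control libraries (SD, n = 3 each), so the 6% ethanol and control groups were each tight and the 10% ethanol group spanned both. The log2 fold change of 6% ethanol against control was 1.26 ± 0.54, with an unadjusted p of 0.0376 and an adjusted p of 0.799. It was 1.16 among long-header and 1.30 among short-header libraries, and 1.15 to 1.32 as each library was left out. With 10% ethanol the difference from control was 0.66 ± 0.54 with an adjusted p of 0.9999, with 0.75 among long-header and 0.40 among short-header libraries, and for 10% against 6% ethanol it was -0.61 ± 0.54 with an adjusted p of 0.824.

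Tet2 had 45.2, 195 and 79.7 CPM in 6% ethanol libraries, 27.6, 60.3 and 95.5 CPM in 10% ethanol libraries, and 135, 69.3 and 231 CPM in control libraries. Its libraries separated by header form, which also split them by depth, and overlapped between the sire groups. The 4 long-header libraries had 27.6 to 69.3 CPM and the 5 short-header libraries 79.7 to 231 CPM, without overlap. Tet2 was the 1 gene of the 10 with such a split, which is near the 9.07% of all tested genes that showed it. Tet2 had a log2 fold change of -0.44 ± 0.68 for 6% ethanol against control with an adjusted p of 0.918. For 10% ethanol against control it was -1.25 ± 0.69 with an unadjusted p of 0.0935 and an adjusted p of 0.9999, and within header form it was nearer to 0, at -0.66 among long-header and -0.94 among short-header libraries. The 6% ethanol value was -0.61 among long-header and -0.43 among short-header libraries.

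Tet3, the TET enzyme of the oocyte and zygote, had 2.41, 1.15 and 0 CPM in 6% ethanol libraries, 2.82, 0.110 and 5.13 CPM in 10% ethanol libraries, and 22.8, 7.80 and 2.05 CPM in control libraries. In counts these were 57, 6 and 0 in 6% ethanol libraries and 54, 3 and 45 in 10% ethanol libraries, and the controls ran from 14 to 279. The count of 0 allows up to 0.330 CPM at 3 counts, which covers counting error only. Controls 1 and 2 were the highest libraries, and control 3 lay below 6% ethanol 1. Tet3 had a log2 fold change of -3.17 ± 1.67 for 6% ethanol against control with an adjusted p of 0.808, the largest in size and the least precise of the 10 genes. It was -1.69 among long-header and -4.50 among short-header libraries. In 10% ethanol libraries it was -2.03 ± 1.59 against control with an adjusted p of 0.9999, with -2.43 among long-header and -1.29 among short-header libraries.

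Tet3 and Dppa3 are also maternal transcripts of the oocyte. The summed oocyte markers averaged 12.4 ± 5.86 CPM in 6% ethanol, 22.7 ± 11.6 in 10% ethanol and 7.44 ± 0.866 in control libraries (SD, n = 3 each). Controls thus had the lowest mean of these markers, the highest mean of Tet3 and the lowest mean of Dppa3, at 2971 ± 1318 CPM in 6% ethanol, 1541 ± 310 in 10% ethanol and 1354 ± 788 in control libraries (SD, n = 3 each). The part of the markers in these values was not tested.

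Tdg, the glycosylase that excises the oxidised bases, had 15.3, 5.35 and 0.220 CPM in 6% ethanol libraries, 14.5, 10.1 and 3.76 CPM in 10% ethanol libraries, and 13.3, 18.4 and 5.42 CPM in control libraries. Its range within each group was wider than the difference between groups, and 6% ethanol 3 rested on 2 counts. Tdg had a log2 fold change of -0.83 ± 1.19 for 6% ethanol against control with an adjusted p of 0.913, and -0.39 ± 1.19 for 10% ethanol against control with an adjusted p of 0.9999. Among long-header libraries the value was -0.27 at 6% and -0.59 at 10% ethanol against control, and among short-header libraries it was -1.79 and -1.32. Tdg is the member with the most shared sequence, as 41.2% of its 50-base stretches occur in other genes, among them Tdg-ps at 29.4%, so reads may have been lost or misplaced. Its exons also overlap the opposite-strand gene Glt8d2 over 367 bases, and Glt8d2 had at most 9 counts.

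At an unadjusted p under 0.05, 3 of the 10 genes differed between 6% ethanol and control, 2 higher and 1 lower, where 6.24% of all 12488 genes did, and the 10 had been chosen with earlier results of these data known. At an adjusted p under 0.05 it was 0 of 10 beside 0% of all genes, and the smallest adjusted p of any gene was 0.799. In DESeq2, 31 genes of the table and 0 of the 10 passed. Groups did not overlap for 2 of the 10, Tet1 and Dnmt3a, where 8.06% of all genes showed no overlap. The median SE of a log2 fold change over all genes was 1.02, and those of the 10 ran from 0.50 to 1.67.

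For 10% ethanol against control, 0 of the 10 had an unadjusted p under 0.05, where 2.14% of all genes did, and 0 an adjusted p under 0.05, where 0% did. None of the 10 was without overlap, where 8.06% of genes were. For 10% against 6% ethanol, 0 of the 10 had an unadjusted p under 0.05, where 5.33% did, and 0 an adjusted p under 0.05, where 0% did. Dnmt3a was without overlap there, where 9.66% of genes were. In that comparison 6 of the 10 genes had a log2 fold change above 0, with a median of 0.29 beside -0.02 over all genes. DESeq2 called 0 of the 10 in both comparisons, beside 10 and 34 genes of the table.

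**Figure D3:**
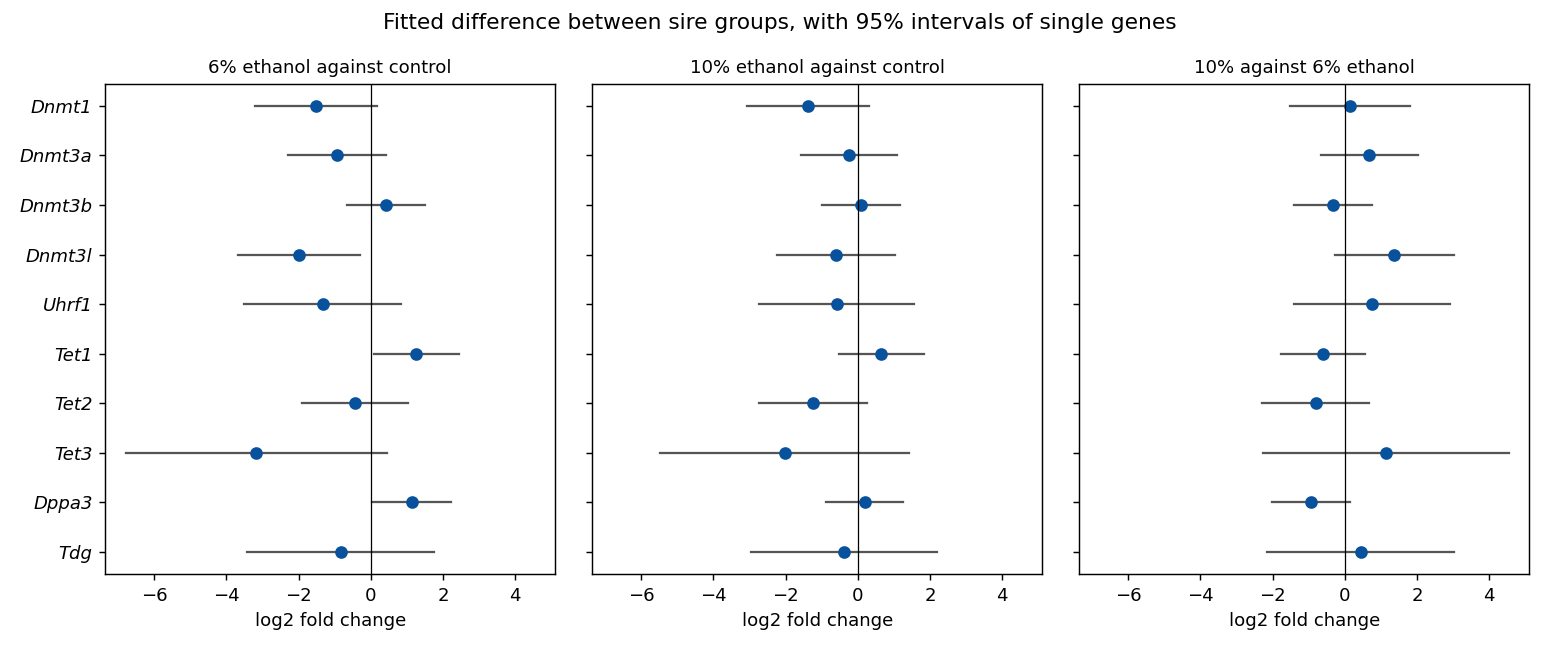
Fitted log2 fold change of each gene (points) with its 95% interval (lines) for 6% ethanol against control, 10% ethanol against control, and 10% against 6% ethanol; intervals are for single genes and are not adjusted for the number tested. In the first panel the intervals of Dnmt3l, Tet1 and Dppa3 leave out 0, and in the other panels every interval includes 0.

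The number of genes at an unadjusted p under 0.05 for 6% ethanol against control changed as libraries were left out. The 3 became 1 without control 1, 0 without control 2 and 2 without control 3. They became 2 without 6% ethanol 1, 1 without 6% ethanol 2, 0 without 6% ethanol 3, and 2 without any 1 of the 10% ethanol libraries. The 10% ethanol libraries are not part of this comparison. Each of these fits repeated the filter and the shared estimate of spread on fewer libraries, so the counts do not isolate the part of a single library. Leaving out any 1 library kept the sign of the 6% ethanol difference for all 10 genes, although that of Tet2 reached -0.0017.

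**Figure D4:**
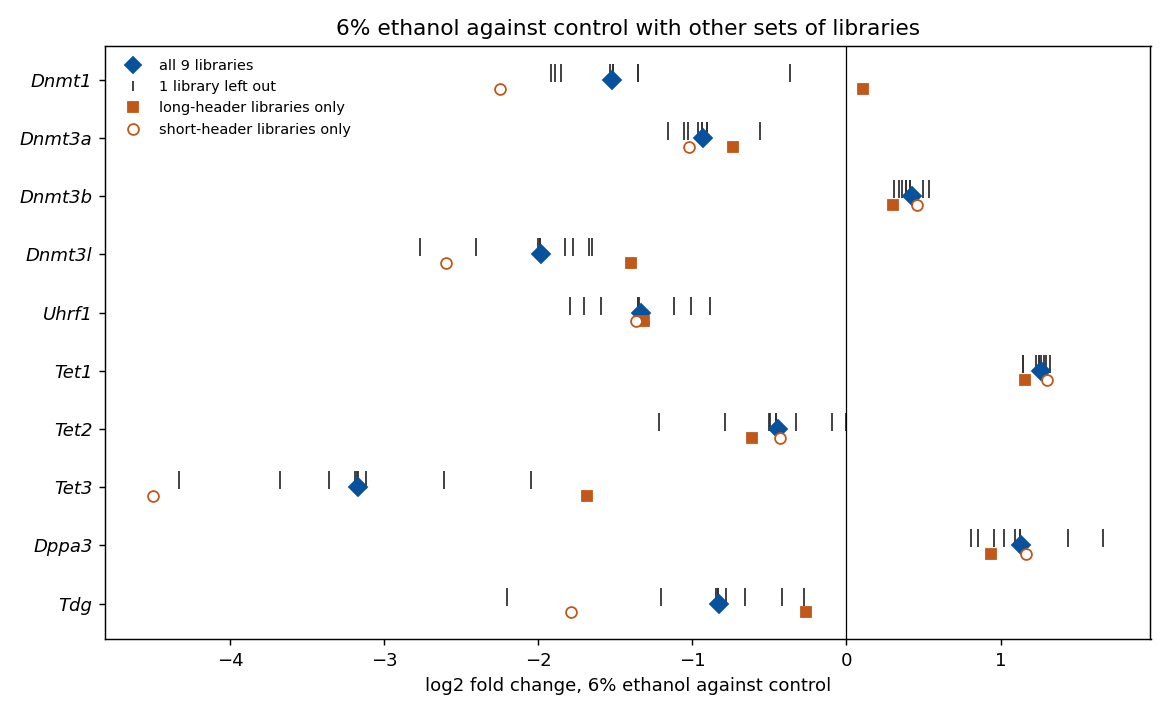
Log2 fold change of 6% ethanol against control for each gene from all 9 libraries (diamonds), with 1 library left out (ticks), from the 4 long-header libraries (squares) and from the 5 short-header libraries (circles). Tet1 stays between 1.15 and 1.32 under all of these, while Dnmt1 runs from -2.25 in short-header libraries to 0.11 in long-header libraries.

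Ratios between paralogs within a library cancel its scaling, and 3 were computed after the values above were seen, so they are a description with no test. Per kb of exon, the ratio of Dnmt3b to Dnmt3a was 15.96, 18.7 and 20.7 in 6% ethanol libraries, 5.51, 10.2 and 11.3 in 10% ethanol libraries, and 10.3, 7.77 and 5.54 in control libraries. The 3 libraries of the 6% ethanol group were the highest of the 9. The ratio of Dnmt3l to Dnmt3b was 0.561, 0.150 and 0.119 in 6% ethanol libraries, 1.65, 1.14 and 0.256 in 10% ethanol libraries, and 1.98, 1.82 and 0.417 in control libraries. Here 6% ethanol 1 lay above control 3 and 10% ethanol 3. The ratio of Tet1 to Tet2 was 2.06, 0.483 and 1.39 in 6% ethanol libraries, 1.32, 1.74 and 0.572 in 10% ethanol libraries, and 0.337, 0.603 and 0.160 in control libraries. Tet1 exceeded Tet2 in 4 of 9 libraries, none of them a control. In both treated groups the library below 1 was a short-header one. The short-header library 6% ethanol 3 nevertheless had 1.39, and the long-header library control 2 had 0.603. The part of header form in this ratio was not tested.

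**Figure D5:**
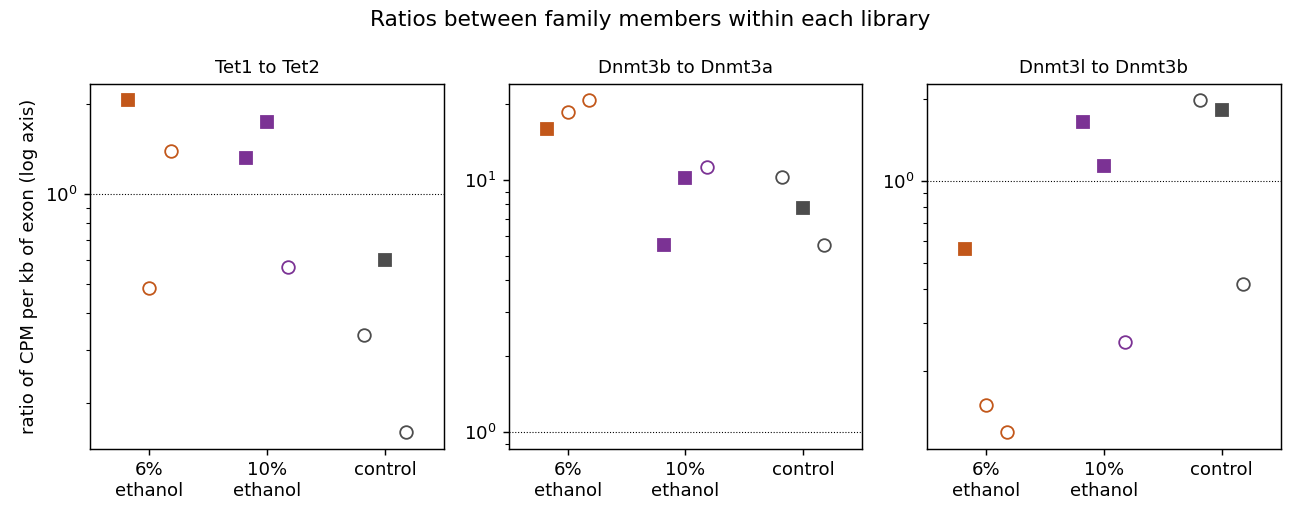
Ratio of Tet1 to Tet2, Dnmt3b to Dnmt3a and Dnmt3l to Dnmt3b in CPM per kb of exon within each library, on log axes, with 6% ethanol, 10% ethanol and control from left to right in each panel. Filled squares are long-header and open circles short-header libraries, and the dotted line marks a ratio of 1; Dnmt3b to Dnmt3a is 15.96 to 20.7 in 6% ethanol libraries and at most 11.3 elsewhere.

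The wider pathway was read from a list of 50 genes in 6 groups, of which 42 could be tested. No gene of the list passed an adjusted p of 0.05 in any comparison by edgeR. At an unadjusted p under 0.05 there were 3 of 42 (7.14%) for 6% ethanol against control, 1 of 42 (2.38%) for 10% ethanol against control and 4 of 42 (9.52%) for 10% against 6% ethanol. The median log2 fold changes over the 42 genes were 0.16, 0.04 and 0.03 in those comparisons. Over all tested genes the shares were 6.24%, 2.14% and 5.33%. Groups did not overlap for 4 (9.52%), 5 (11.9%) and 4 (9.52%) of the 42, beside 8.06%, 8.06% and 9.66% of all tested genes, and several of the genes named below are among these.

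Among readers of methylated DNA, of which 6 were tested, Mbd2, a methyl-CpG binding protein of the NuRD repressor complex, had 0.677, 0.382 and 0.330 CPM in 6% ethanol libraries, 6.74, 5.85 and 8.09 CPM in 10% ethanol libraries, and 2.20, 2.64 and 2.35 CPM in control libraries. The 3 groups did not overlap, with 6% ethanol below control and 10% ethanol above it, although the 6% ethanol values rested on 16, 2 and 3 counts. Neither difference from control passed, with a log2 fold change of -2.32 ± 1.10 at 6% ethanol (adjusted p of 0.802 in edgeR) and 1.52 ± 1.05 at 10% ethanol (adjusted p of 0.9999). The log2 fold change was 3.84 ± 1.17 for 10% against 6% ethanol with an unadjusted p of 0.00616 and an adjusted p of 0.806 in edgeR. DESeq2 gave 3.81 with an adjusted p of 0.0268, the 1 call that differed between the tools among the related genes taken by the rule. All of these levels are low. Uhrf2, a paralog of Uhrf1, averaged 2.01 ± 2.16 CPM in 6% ethanol, 4.64 ± 1.34 in 10% ethanol and 11.3 ± 10.7 in control libraries (SD, n = 3 each).

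Of 11 tested genes of base excision repair and neighbouring steps, 4 had a log2 fold change above 0 and 7 below 0 for 6% ethanol against control. Polb, the polymerase that fills the repaired gap, had 55.6, 160 and 116 CPM in 6% ethanol libraries, 28.4, 22.7 and 63.8 CPM in 10% ethanol libraries, and 45.9, 39.6 and 55.7 CPM in control libraries. Its log2 fold change was -1.53 ± 0.60 for 10% against 6% ethanol with an adjusted p of 0.806, and 1.23 ± 0.60 for 6% ethanol against control with an adjusted p of 0.802. Gadd45b, a stress-induced gene linked to active demethylation, had 15.7, 4.01 and 0.220 CPM in 6% ethanol libraries, 15.3, 6.69 and 7.30 CPM in 10% ethanol libraries, and 63.0, 75.3 and 3.67 CPM in control libraries. Controls 1 and 2 were high and control 3 was not, as for Uhrf1, Dnmt3l and Tet3. The scaffold gene Xrcc1 reached 1123 CPM in 6% ethanol 2 alone and lay between 68.2 and 197 CPM in every other library. Neil2, a DNA glycosylase, stayed at or below 6.86 CPM.

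Of 11 tested partners of the methyltransferases, 8 had a log2 fold change above 0 for 6% ethanol against control and 7 for 10% ethanol against control, with medians of 0.52 and 0.31. Xpo1, the nuclear export receptor, had 759, 1596 and 1892 CPM in 6% ethanol libraries, 730, 1067 and 1031 CPM in 10% ethanol libraries, and 703, 700 and 875 CPM in control libraries. Its log2 fold change was 0.90 ± 0.42 for 6% ethanol against control with an adjusted p of 0.802. Kdm1b, a histone demethylase needed for imprint methylation in oocytes, averaged 24.7 ± 11.2 CPM in 6% ethanol, 11.9 ± 6.59 in 10% ethanol and 12.03 ± 3.23 in control libraries (SD, n = 3 each), without overlap between 6% ethanol and control. The histone methyltransferase genes Ehmt2 and Ehmt1 averaged 47.5 ± 20.6 and 29.3 ± 18.7 CPM in 10% ethanol libraries, against 24.0 ± 15.8 and 17.2 ± 6.60 CPM in control libraries. The remodeller Hells averaged 58.8 ± 43.3 CPM in 10% ethanol libraries, against 114 ± 54.1 CPM in 6% ethanol libraries. None of these differences passed.

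The list of partners and cofactor suppliers of the TET enzymes held 6 tested genes. Cxxc1 was in this list, but its product binds unmethylated CpG and was not examined here as a partner of a TET enzyme. Cxxc1 had 7.66, 3.82 and 23.7 CPM in 6% ethanol libraries, 29.5, 58.7 and 65.0 CPM in 10% ethanol libraries, and 14.3, 11.1 and 7.92 CPM in control libraries. Every 10% ethanol library lay above every other library. Its log2 fold change was 2.20 ± 0.80 against control with an unadjusted p of 0.0176 and an adjusted p of 0.9999, and 2.12 ± 0.80 against 6% ethanol with an adjusted p of 0.806. Dcaf1, a substrate receptor of a ubiquitin ligase that modifies TET proteins, had a log2 fold change of 1.51 ± 0.63 for 6% ethanol against control with an adjusted p of 0.799, and 0.28 without 6% ethanol 3, which had 464 CPM. It was -0.024 among long-header libraries. The isocitrate dehydrogenase genes Idh1 and Idh2, which supply the TET cofactor, averaged 199 ± 124 and 18.3 ± 7.21 CPM in 6% ethanol, 303 ± 122 and 13.9 ± 6.52 in 10% ethanol, and 371 ± 201 and 29.2 ± 8.50 in control libraries (SD, n = 3 each).

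In the supply of the methyl donor, Mat2b, the regulatory subunit of methionine adenosyltransferase, had 109, 529 and 177 CPM in 6% ethanol libraries, 62.7, 88.6 and 58.4 CPM in 10% ethanol libraries, and 114, 82.1 and 21.8 CPM in control libraries. Mat2b had a log2 fold change of 1.90 ± 0.70 for 6% ethanol against control with an unadjusted p of 0.0186 and an adjusted p of 0.799. For 10% against 6% ethanol it was -1.96 ± 0.71 with an adjusted p of 0.806. That value was -1.02 without 6% ethanol 2, which had 529 CPM, and -0.54 among long-header libraries. Mat2b in 6% ethanol 1 lay below control 1. Its catalytic partner Mat2a averaged 553 ± 45.7 CPM in 6% ethanol, 634 ± 210 in 10% ethanol and 470 ± 247 in control libraries (SD, n = 3 each). Methionine synthase, Mtr, had 56.0, 48.1 and 45.1 CPM in 6% ethanol libraries, 28.4, 27.8 and 21.1 CPM in 10% ethanol libraries, and 11.3, 27.02 and 33.1 CPM in control libraries. Its 6% ethanol libraries were the 3 highest of the 9, with a log2 fold change of 1.06 ± 0.62 against control and an adjusted p of 0.822. Ahcyl1, a homolog of adenosylhomocysteinase, averaged 115 ± 27.5 CPM in 10% ethanol libraries, against 255 ± 202 CPM in 6% ethanol libraries.

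Both remaining relatives of the DNMT family could be tested. Trdmt1, which methylates transfer RNA, had 7.53, 13.9 and 13.5 CPM in 6% ethanol libraries, 15.3, 13.5 and 11.2 CPM in 10% ethanol libraries, and 3.76, 6.54 and 2.49 CPM in control libraries. All 6 libraries from ethanol-treated sires lay above all 3 controls, and in 1.79% of tested genes both ethanol groups lay on the same side of the controls without overlap. The log2 fold change was 1.44 ± 0.85 for 6% ethanol against control with an adjusted p of 0.822, and 1.64 ± 0.86 for 10% ethanol against control with an adjusted p of 0.9999. Dnmt3c reached 15.0 CPM in 10% ethanol 3 and at most 3.85 CPM elsewhere.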

How the data were processed

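The deposited values are raw counts per gene symbol, 1 file a library, which the authors made with featureCounts on GRCm39, per the submitters' processing notes, which also name DESeq2. RNA STAR is named in 4 files, per the file headers. Versions, annotation and strand setting are not given in the sources used here, so genes overlapping on opposite strands cannot be separated.

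Counts were filtered with filterByExpr by group, scaled with TMM factors and fitted with edgeR 4.0.16 (quasi-likelihood, 3 groups, all 9 libraries, no covariate) in R 4.3.3 with limma 3.58.1. Benjamini-Hochberg adjustment ran over 12488 genes, with a threshold of 0.05. CPM use TMM-scaled library sizes. Exon lengths and shared stretches come from GENCODE M21, which is of another build. The fit was checked on counts simulated from the means and spreads of these data, with 50 genes changed at each size. For 6% ethanol against control, 10% ethanol against control and 10% against 6% ethanol, it recovered 0, 1 and 3 of the genes changed 4-fold. Of the genes changed 16-fold it recovered 22, 16 and 22. A result of 0 calls therefore does not show that a gene is equal between groups.

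The members and lists were chosen with earlier results of these data known. Of each related list the rule took the 2 tested genes of smallest p in each comparison, of which some are not reported here, and for likeness the 3 genes of highest Pearson r with the most abundant member and with the most variable member averaging 10 CPM or more. Alternatives were RLE scaling, no filter, DESeq2 1.42.0, a term for header form, long-header or short-header libraries alone, and each library left out. Those for related genes were added after seeing the data. Libraries of a group differed by more than counting noise.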

Additional observations from a re-analysis of the deposited data

Results flagged for a closer look

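Mbd2 was marked for a closer look because of its difference between 10% and 6% ethanol, a log2 fold change of 3.84. Every 6% ethanol library also lay below and every 10% ethanol library above the controls. This order without overlap, which 10 of the 12488 tested genes (0.0801%) showed, is a description with no test. In 6% ethanol libraries 2 and 3 Mbd2 rested on 2 and 3 counts, no more than the 3 counts taken as the limit of a count of 0. The levels were 0.463 ± 0.187 CPM in 6% ethanol, 6.89 ± 1.13 in 10% ethanol and 2.40 ± 0.22 in control libraries (SD, n = 3 each). The log2 fold change of 10% against 6% ethanol was 3.84, and its test in edgeR gave an adjusted p of 0.806. It was 3.20 among long-header and 4.46 among short-header libraries, and 3.67 to 4.27 as each library was left out. Against control the log2 fold change was -2.32 at 6% ethanol with an adjusted p of 0.802 in edgeR and 1.52 at 10% ethanol with an adjusted p of 0.9999, so neither passed.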

How the results depend on the processing

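The median SE of a log2 fold change at 6% ethanol against control was 1.02, and the common biological coefficient of variation was 0.911. No member passed an adjusted p of 0.05 under any of the 15 alternatives. Calls over all genes are given for 6% ethanol against control, 10% ethanol against control and 10% against 6% ethanol, in that order. They were 0 in each comparison with all libraries, 31, 10 and 34 by DESeq2, and 140, 47 and 147 without a filter. Calls within a header form are not given, because each form leaves at least 1 group with 1 library. Of 450 log2 fold changes of members under these alternatives, 431 kept their sign, and 18 of 30 results never turned. Several alternatives fit the same libraries again. A library of the group outside a comparison enters it only through the filter, the scaling and the shared spread. Many of these signs could therefore hardly turn, and the count is no measure of robustness. No paired analysis was possible because replicate numbers were given in accession order.

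In long-header libraries alone the sign turned for Dnmt1 at 6% ethanol against control (0.11), for Dnmt3b at 10% ethanol against control (-0.061), and for Dnmt1 (-0.71), Uhrf1 (-0.083), Tet3 (-0.74), Dppa3 (0.16) and Tdg (-0.33) at 10% against 6% ethanol. In short-header libraries alone it turned for Uhrf1 (0.26) and Dppa3 (-0.38) at 10% ethanol against control and for Dnmt3b (0.050) at 10% against 6% ethanol. With 1 library left out, values at 10% ethanol against control ran from -0.45 to 0.17 for Dnmt3a, -0.22 to 0.39 for Dnmt3b, -0.076 to 0.77 for Dppa3 and -0.83 to 0.019 for Tdg. At 10% against 6% ethanol they ran from -0.13 to 0.54 for Dnmt1, -0.63 to 0.0031 for Dnmt3b and -0.11 to 1.81 for Tdg. Among related genes, 496 of 510 values kept sign and side of the threshold, with the same limit as for the members. In long-header libraries alone the sign turned at 10% against 6% ethanol for Xrcc1 (0.75), Dnmt3c (-2.21) and Dcaf1 (0.53), at 10% ethanol against control for Dnmt3c (-2.09), and at 6% ethanol against control for Dcaf1 (-0.024) and Idh1 (0.079). In short-header libraries alone it turned for Trdmt1 (-0.29) at 10% against 6% ethanol and Mat2a (-0.55) at 10% ethanol against control. With 1 library left out, values at 10% against 6% ethanol ran from -1.37 to 0.25 for Dcaf1, -1.66 to 1.66 for Dnmt3c, -0.019 to 0.37 for Trdmt1 and -2.05 to 1.03 for Xrcc1, and at 10% ethanol against control from -0.75 to 4.28 for Dnmt3c. The cause of these turns was not tested.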
